A study of Mus musculus with 8 samples.

Results

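The subject here is a set of 10 mouse genes best known from pigment cells, Kit, Ednrb, Mitf, Tyr, Tyrp1, Dct, Pmel, Mlana, Oca2 and Gpnmb, as measured in cultures of oligodendrocyte precursor cells. The set was chosen on measured values: Dct, Gpnmb and Oca2 were seen to be lower in the cooled cultures, and the other 7 genes were added as further genes of the same pigment program. The contrast between the temperatures therefore chose the genes, and it is described for them without a test. The 10 genes have 19 probe sets, of 45037 probe sets and 18193 named genes on the array, and all 19 are accounted for, those near background included.

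The cultures at 31.5 °C and at 37 °C both came from forebrain hemispheres of ICR embryos at 15 days of gestation. ICR is an albino stock. All cells were grown for 5 days in medium with 10% fetal serum, then passaged into serum-free medium and held for 48 hr at 31.5 °C (4 arrays, replicates 1 to 4) or at 37 °C (4 arrays, replicates 1 to 4). The RNA protocol gives 3 mice per group, and no label says that the 4 replicates were separate cultures, so errors and p-values measure the spread between these arrays, which may be technical. The starting culture is mixed, and no label describes a purification of the precursors after the passage.

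Each array reads total RNA as 1 fluorescence signal per probe set, and signals are given after scaling the arrays to a common mean. The trimmed mean of an array before scaling was 189 to 238 at 31.5 °C and 132 to 248 at 37 °C, lowest in replicate 4 at 37 °C, and 4 arrays per temperature limit the precision. No detection calls came with the values. A scaled signal of 9.8, the 25th percentile of all values, was used as a floor. A gene was tested when its brightest probe set, averaged on the log2 scale, reached a signal of 36.3, the median of all probe sets. Averages given below are of linear signal and can lie above 36.3 for a gene that was not tested. Arrays that carry the same replicate number varied together, so changes are also given within the 4 pairs. A log2 change is always the 31.5 °C level minus the 37 °C level.

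Melanocytes arise from the neural crest. The receptor Kit and the endothelin receptor Ednrb carry survival and migration signals to their precursors, and the transcription factor MITF, itself switched on by SOX10 and PAX3, drives the genes of pigment synthesis. Tyrosinase (Tyr) makes the first steps from tyrosine, dopachrome tautomerase (Dct) and Tyrp1 act later in eumelanin synthesis, Pmel forms the fibrils on which pigment is laid down, Mlana assists Pmel, and Oca2 is a transporter of the melanosome, a lysosome-related organelle. Several of these genes have lives outside pigment cells: SOX10 is a factor of oligodendrocytes too, Ednrb is carried by astrocytes and glial precursors, Gpnmb is a membrane glycoprotein of macrophages, microglia and osteoclasts as well as of melanosomes, and Dct is transcribed in the embryonic forebrain.

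The label of the set was checked against the genes that define a melanocyte, and the data went against it there. Of the enzymes and structural proteins that define a melanocyte, Mlana was at or under the floor on all 8 arrays, 2 of 3 probe sets of Tyr and 1 of 3 of Tyrp1 were at or under it on all 8 arrays, and no probe set of Tyr, Tyrp1 or Mlana reached 36.3 on any array. Against this, Dct, Oca2, Gpnmb, Kit, Ednrb, Pmel and 1 probe set of Mitf stayed above the floor on all 8 arrays and passed the filter, so 7 of the 10 genes could be tested and 3 could not. The set is therefore treated as a list of genes, and no pigment cell is named from it.

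MITF binds the E-box CATGTG, which in melanocyte genes lies in a longer element called the M-box. The 250 bases before the RefSeq start (GRCm38.p6) are shown for Dct, Gpnmb and Oca2, since these are the members that were lower together. Capitals mark CATGTG or its complement CACATG.
Dct (chr14:118052247-118052496, minus strand): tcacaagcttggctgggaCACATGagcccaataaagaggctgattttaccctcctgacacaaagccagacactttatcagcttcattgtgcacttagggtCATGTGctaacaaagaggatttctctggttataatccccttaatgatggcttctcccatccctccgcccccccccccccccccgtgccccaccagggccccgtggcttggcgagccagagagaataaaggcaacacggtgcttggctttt
Oca2 (chr7:56239509-56239758, plus strand): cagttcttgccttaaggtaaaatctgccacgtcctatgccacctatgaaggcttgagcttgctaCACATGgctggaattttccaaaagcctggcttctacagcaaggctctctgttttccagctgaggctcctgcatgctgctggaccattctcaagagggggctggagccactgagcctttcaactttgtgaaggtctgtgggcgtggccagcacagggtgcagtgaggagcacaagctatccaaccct
Gpnmb (chr6:49036268-49036517, plus strand): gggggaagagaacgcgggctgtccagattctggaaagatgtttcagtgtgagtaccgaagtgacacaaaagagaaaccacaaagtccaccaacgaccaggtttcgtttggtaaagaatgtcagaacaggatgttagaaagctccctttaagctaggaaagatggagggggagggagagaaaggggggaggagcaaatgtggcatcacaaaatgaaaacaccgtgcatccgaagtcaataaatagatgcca

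The Dct window held 2 matches, starting 232 and 150 bases before the start, the Oca2 window held 1 at 186 bases, and the Gpnmb window held 0. The tyrosinase family genes whose signals were near background also carried the box close to their starts, shown here with 12 bases on each side.
Tyr (box at chr7:87493528-87493533, starting 21 bases before the start, minus strand): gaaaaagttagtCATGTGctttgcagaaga
Tyrp1 (box at chr4:80834167-80834172, starting 46 bases before the start, plus strand): tggggagggagtCATGTGctgcctagtagt

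Of all 32851 windows of 250 bases, 12.3% held CATGTG on either strand, 6.02% held the related E-box CACGTG and 16.5% held ACAAAG, a core recognised by SOX factors. CACGTG was found in none of the member windows. ACAAAG or its complement stood in the windows of Dct (2 matches, 1 of them a few bases from the second box), Oca2 (1), Gpnmb (1) and Tyrp1 (1). The windows of Kit (2), Ednrb (1) and Mitf (3) held none of the 3 motifs, and Pmel and Mlana were not matched. The box was thus present both in genes with a clear signal that was lower at 31.5 °C (Dct, Oca2) and in genes near background (Tyr, Tyrp1). A match describes these letters and is not evidence of binding.

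Dct was lower at 31.5 °C. Its probe set had scaled signals of 44.0, 60.2, 37.7 and 42.8 in replicates 1 to 4 at 31.5 °C, against 160, 193, 129 and 86.1 at 37 °C. Every array at 31.5 °C lay under every array at 37 °C, and the smallest difference was in pair 4. The level at 31.5 °C averaged 46.2 ± 9.74 and that at 37 °C 142 ± 45.4 (SD, n = 4 each). Within the pairs the log2 change was -1.86, -1.68, -1.78 and -1.01, with a mean of -1.58 ± 0.39 (SD over the 4 pairs), which leaves 33.4% of the 37 °C level.

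Oca2, the melanosomal transporter whose loss gives the pink-eyed dilution coat, was also lower. Its probe set had signals of 76.1, 87.8, 61.1 and 76.7 at 31.5 °C, against 151, 196, 168 and 177 at 37 °C. The groups did not overlap, and the arrays of each temperature lay close together. The means were 75.4 ± 10.9 at 31.5 °C and 173 ± 18.9 at 37 °C (SD, n = 4 each). The within-pair changes were -0.99, -1.16, -1.46 and -1.21, a mean of -1.2 ± 0.19, or 43.4% of the 37 °C level.

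Gpnmb was lower on both of its probe sets. The brighter one had signals of 782, 1161, 939.8 and 1994 at 31.5 °C, against 2597, 3266, 3169 and 3802 at 37 °C. The groups did not overlap, and replicate 4 was the highest at both temperatures. The means were 1219 ± 539 at 31.5 °C and 3208 ± 494 at 37 °C (SD, n = 4 each), and the mean change within pairs was -1.48 ± 0.38, from -1.75 in pair 3 to -0.93 in pair 4. The dimmer one had 21.8, 23.7, 38.7 and 29.5 at 31.5 °C, against 32.5, 38.4, 58.7 and 63.4 at 37 °C. It was lower in each of the 4 pairs (mean -0.74 ± 0.25), although the highest array at 31.5 °C lay above the lowest at 37 °C.

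**Figure D1:**
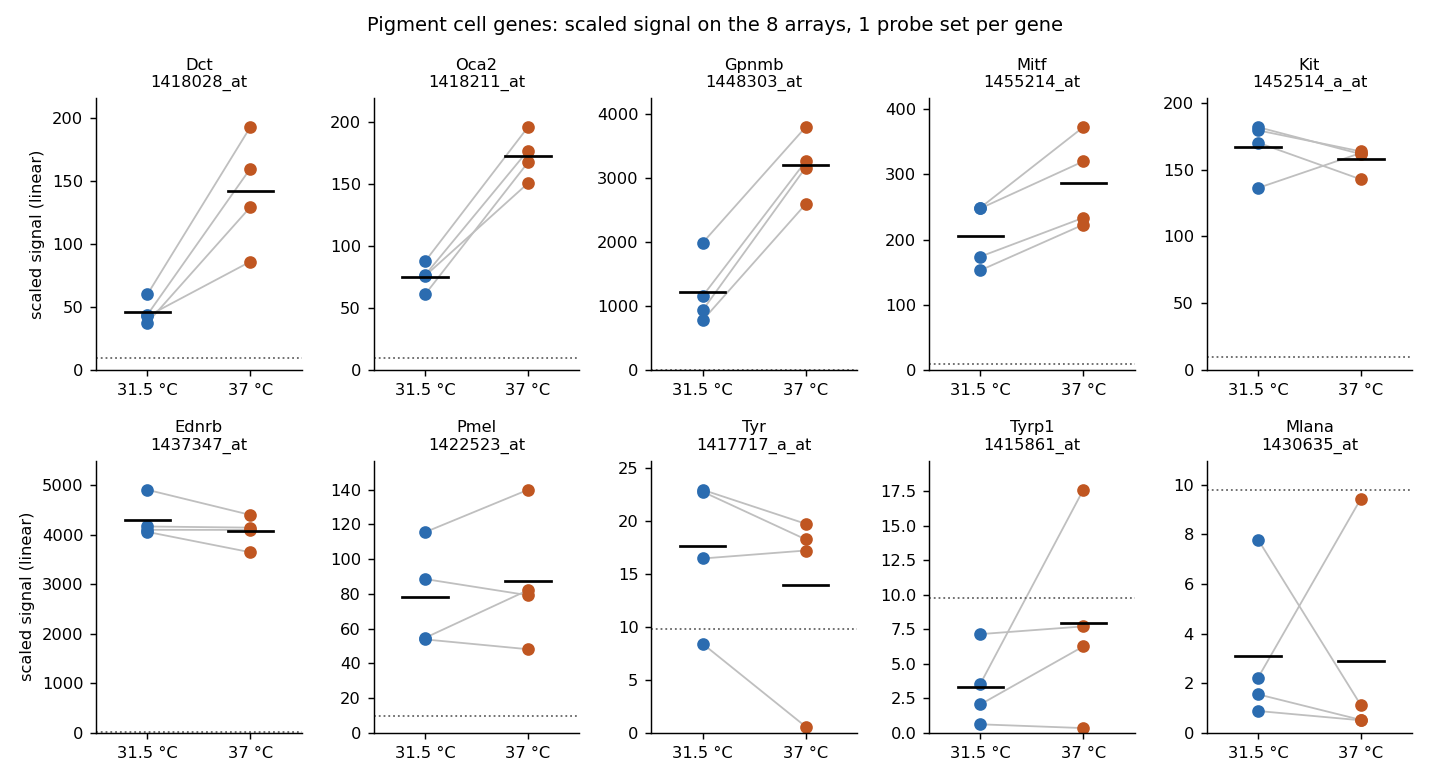
Scaled linear signal (y) of 1 probe set per gene on the 4 arrays at 31.5 °C (blue, left) and the 4 at 37 °C (orange, right); grey lines join arrays of 1 replicate number, black bars are means and the dotted line is the floor of 9.8. Dct, Oca2 and Gpnmb do not overlap between temperatures, Mitf is lower in each pair, Kit, Ednrb and Pmel overlap, and Tyr, Tyrp1 and Mlana lie around or under the floor.

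Mitf, the factor above most of these genes, was read by 2 probe sets of different brightness. The brighter one had signals of 153, 174, 248 and 249 at 31.5 °C, against 223, 233, 319.8 and 372 at 37 °C. The groups overlapped, because replicates 3 and 4 were high at both temperatures, yet the level was lower at 31.5 °C in each pair, by -0.54, -0.42, -0.37 and -0.58. The mean change was -0.48 ± 0.1 (SD over the 4 pairs), or 71.8% of the 37 °C level. The dimmer one, with 10.7 to 35 at 31.5 °C and 13 to 30.1 at 37 °C, changed by between -0.93 and 1.43 within pairs and was never above 36.3.

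The receptors overlapped between the temperatures. Kit, on the brighter of 2 probe sets, had signals of 136, 182, 170.1 and 179 at 31.5 °C, against 162, 161, 143 and 163 at 37 °C. The ranges overlapped, and the mean change was 0.076 ± 0.23 (SD over the 4 pairs), higher in 3 pairs and lower in 1. The dimmer had 52.5 to 76.5 at 31.5 °C and 59.2 to 65 at 37 °C, with a mean change of 0.041 ± 0.31. Ednrb was bright on all 3 of its probe sets, and on the brightest it had signals of 4909.8, 4060, 4102 and 4169 at 31.5 °C, against 4403, 3649, 4100.1 and 4146 at 37 °C. These ranges overlapped as well, and the mean change was 0.08 ± 0.087. The other 2 probe sets of Ednrb gave mean changes of 0.18 ± 0.21 and 0.14 ± 0.1, so all 3 leaned upward by at most 0.18.

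Among the enzymes and structural proteins other than Dct, only Pmel had a signal above the floor throughout. It had 53.8, 115, 88.5 and 54.7 at 31.5 °C, against 48.2, 139.9, 79.2 and 82.1 at 37 °C. The array values overlapped widely, with 2 pairs higher, 2 pairs lower and a mean change of -0.14 ± 0.36. The brightest probe set of Tyr had 8.39 to 22.9 at 31.5 °C and 0.593 to 19.7 at 37 °C, with 2 of 8 arrays at or under the floor. Tyrp1 was above the floor on only 1 array in each of 2 probe sets, at 14.7 in replicate 2 at 31.5 °C on one and at 17.6 in replicate 4 at 37 °C on another, and on no array in the third. Mlana ranged from 0.884 to 7.79 at 31.5 °C and from 0.509 to 9.45 at 37 °C. Values at the floor have no order, so no change is given for Tyr, Tyrp1 and Mlana, and a difference between temperatures was not detectable for them at these signals.

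**Figure D2:**
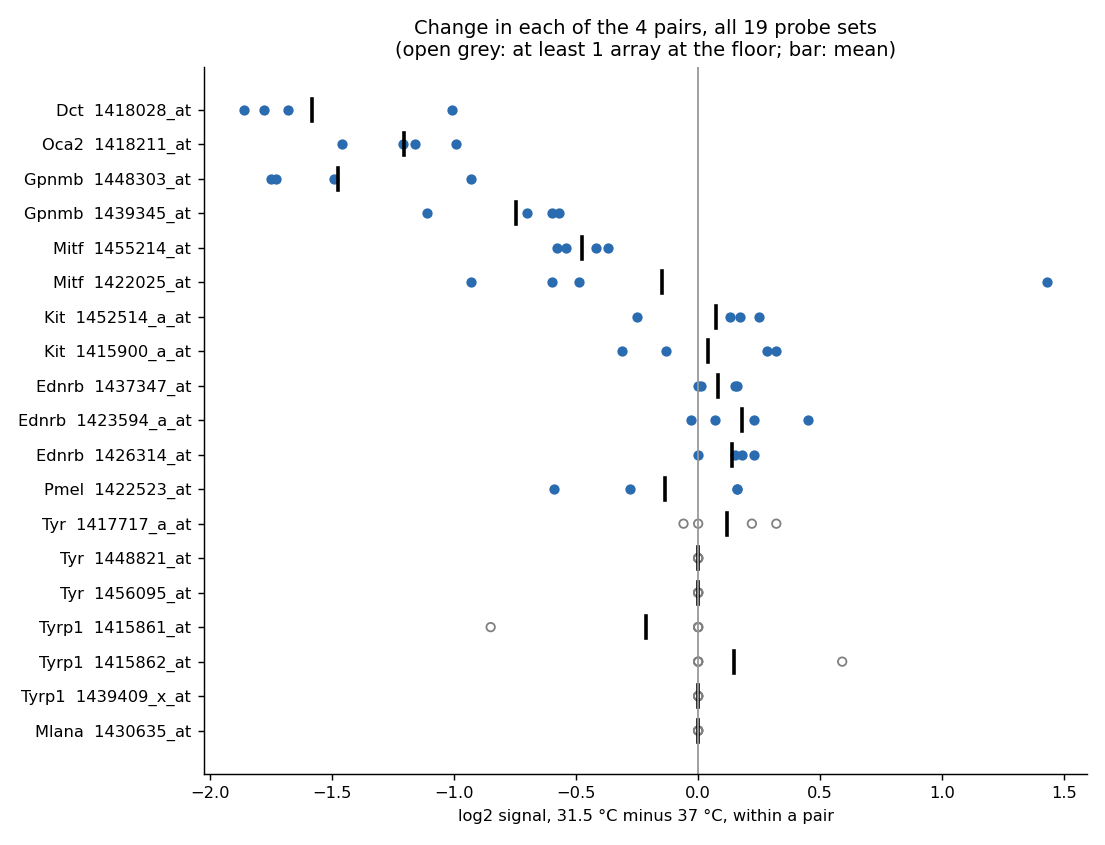
Log2 change (x, 31.5 °C minus 37 °C) within each of the 4 pairs for all 19 probe sets of the 10 genes, with the mean as a black bar; open grey points belong to probe sets with at least 1 array at the floor. Dct, Oca2, both Gpnmb probe sets and the brighter Mitf probe set lie left of 0 in all 4 pairs, and the 2 Kit and 3 Ednrb probe sets lie within 0.45 of it.

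As a count, 3 of the 10 genes were called in the fit over all genes (limma, adjusted p under 0.05), all 3 lower at 31.5 °C, and 15.4% of the 11525 genes tested were called, 7.64% higher and 7.77% lower. Of the called genes 49.6% were higher, and 62.6% were with median scaling. The 3 are Dct, Oca2 and Gpnmb, the genes the set was chosen on. With the replicate number as a block 4 were called, Mitf being the fourth, beside 30.8% of all genes, 15.8% lower and 15% higher. The groups did not overlap, lower at 31.5 °C, for 3 members and for 10.5% of all genes tested, and 4 members were lower in all 4 pairs, as were 25.1% of all genes tested. The median change over the 10 members was -0.17 ± 0.25 (SD over the 4 pairs), a value that includes genes around the floor. Over the 7 members past the filter it was -0.48 ± 0.1, against -0.0017 over all genes tested. Since the contrast picked the genes, nothing is read from these counts.

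The members differed in how their arrays varied. Gpnmb on its dimmer probe set and Mitf on its brighter one were both higher in replicates 3 and 4 than in replicates 1 and 2 at each temperature. The brighter probe set of Gpnmb was not, with replicate 3 under replicate 2 at both temperatures. Dct was highest in replicate 2 at both, and Oca2 was likewise highest in replicate 2 at both. Over the 8 arrays, which hold both temperatures and so share that difference, the log2 values of Dct and Oca2 correlated at r = 0.926, those of Oca2 and Gpnmb at 0.899 and those of Dct and Gpnmb at 0.78. Mitf correlated with Gpnmb at 0.759, with Oca2 at 0.533 and with Dct at 0.312. Ednrb ran against Pmel (r = -0.802). Around the mean of each temperature part of the pattern was another. Dct and Oca2 had r = 0.419, Oca2 and Gpnmb 0.352, Dct and Gpnmb -0.163, Dct and Mitf -0.765 and Mitf and Oca2 -0.274. Mitf and Gpnmb kept 0.593, and Ednrb and Pmel kept -0.814. These values describe 8 arrays and carry no test.

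The genes whose levels followed these 3 most closely over the 8 arrays were of unrelated kinds. For Dct they were Khdrbs3, an RNA-binding splicing factor gene (r = 0.992), Fem1b, of a ubiquitin ligase (0.975), and Rpe, a pentose phosphate enzyme gene (0.974). For Gpnmb they were Kbtbd8, a ubiquitin ligase adaptor gene (0.991), Hdac9, a histone deacetylase gene (0.982), and Rgs7bp, a partner of G protein regulators (0.974). For Oca2 they were Ciao2b, of iron-sulfur cluster assembly (0.991), Trappc13, of a vesicle tethering complex (0.991), and Mrps12, a mitochondrial ribosomal protein gene (0.99). Their changes ran from -0.24 for Mrps12 to -0.93 for Rgs7bp, a direction fixed by picking genes that follow 3 genes lower at 31.5 °C. Such likeness was common: 200 genes passed r = 0.9 with Dct, 217 with Gpnmb and 323 with Oca2, between 1.74% and 2.8% of all genes compared.

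Genes of the same pathway that were not used in choosing the set could be tested. Their lists, here and below, were still drawn up with earlier results of these data known. The shares that passed therefore describe the lists and are not an independent check. Of the ligands, receptors and transcription factors of the pigment lineage, 13 of 28 were bright enough. In this group 0 rose, 2 fell and 11 did not pass, that is 15.4% lower against 7.77% of all genes tested, at a median change of -0.092. With the replicate block 0 rose and 3 fell, that is 23.1% lower against 15.8% of all genes in that fit. On averaging each gene's probe sets 1 rose and 1 fell. Kitl, the ligand of Kit, fell to 345, 399.5, 396 and 346 at 31.5 °C, against 743, 707, 658 and 551 at 37 °C. The arrays did not overlap, and the change was -0.83 ± 0.11 (SE; limma, adjusted p = 0.00348), lower in 4 of 4 pairs. The ligand thus fell while its receptor Kit had overlapping levels.

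Zeb2, a zinc finger repressor needed for neural crest and for myelinating glia, fell by 0.49 on the log2 scale (± 0.12 SE, adjusted p = 0.028), with 507 ± 40.8 at 31.5 °C and 717 ± 106 at 37 °C (SD, n = 4 each). Its call was lost when replicate 1, 2 or 4 at 31.5 °C or replicate 2 or 3 at 37 °C was left out (changes of -0.48, -0.46, -0.47, -0.43 and -0.44, adjusted p between 0.0545 and 0.0726), as it was with median scaling (adjusted p = 0.15), with no filter (0.0528) and on averaging its probe sets (0.0787). The count for the group was 1 without any of those 5 arrays. With the replicate block Zeb2 had an adjusted p of 0.0126 (limma). Sox10, which acts on Mitf and Dct in pigment cells and is also a factor of oligodendrocytes, had 961, 877, 902 and 951 at 31.5 °C and 939, 1368, 1069 and 1437 at 37 °C. The 4 values at 31.5 °C were close together and those at 37 °C were spread, the change was -0.36 ± 0.14 (adjusted p = 0.111), and it passed without replicate 1 at 37 °C (-0.47, adjusted p = 0.043). Erbb3, a neuregulin receptor of crest-derived and glial cells, had -0.78 ± 0.34 (adjusted p = 0.157, and 0.0295 with the block).

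Other lineage genes were dim and were not tested. Pax3, a crest factor upstream of Mitf, had 43.2 ± 10.5 at 31.5 °C and 29.6 ± 6.38 at 37 °C, higher at 31.5 °C in each of the 4 pairs. Edn3, the ligand of Ednrb in the crest, had 29.7 ± 6.66 at 31.5 °C and 25.1 ± 9.26 at 37 °C. Mc1r, the melanocortin receptor that sets pigment type, had 12.1 ± 7.31 at 31.5 °C and 15.3 ± 3.03 at 37 °C, and Foxd3, a crest factor, was at or under the floor on all 8 arrays.

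Among genes of the melanosome and of its transport more passed higher than lower. Of 33 listed genes 24 were tested: 6 rose, 1 fell and 17 did not pass, that is 25% higher against 7.64% of all genes tested, at a median of 0.087. With the replicate block 8 rose and 2 fell, that is 33.3% higher against 15% and 8.33% lower against 15.8% of all genes. Slc7a11, the cystine carrier whose loss gives the subtle gray coat and which also belongs to the antioxidant response, had 382, 376, 383 and 254 at 31.5 °C, against 171, 162, 189 and 116 at 37 °C. All 4 cooled arrays lay above all 4 others, and the change was 1.13 ± 0.18 (adjusted p = 0.00688). Myo5a, the motor that carries melanosomes and, in neural cells, other vesicles, had 941, 1061, 1089 and 1093 at 31.5 °C, against 575, 571, 632 and 559 at 37 °C. This change of 0.84 ± 0.083 (adjusted p = 0.00117) was without overlap, but with the mean of all probe sets of Myo5a it was 0.25 (adjusted p = 0.0556).

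The other 4 that rose were Rabggta (0.49), which prenylates Rab proteins, Vps33a (0.4), of the endosomal tethering complexes, Bloc1s5 (0.32), a subunit of a melanosome biogenesis complex, and Ap1s1 (0.29), of a clathrin adaptor, with adjusted p from 0.0208 to 0.0402. Hps4, of another biogenesis complex, fell to 196 ± 9.15 at 31.5 °C, against 255 ± 16.7 at 37 °C (SD, n = 4 each), by 0.38 on the log2 scale (adjusted p = 0.0173), a call lost without replicate 3 at 31.5 °C (-0.36, adjusted p = 0.0555) and with median scaling (-0.29, adjusted p = 0.246). With the replicate block Hps4 had an adjusted p of 0.00939 (limma). All 7 called genes are genes of general vesicle traffic or metabolism as well as of pigment. The count of the list fell to 3, 4 and 2 without replicate 1, 2 or 3 at 31.5 °C and to 4 without replicate 2 or 4 at 37 °C. Under median scaling, where the median gene changed by 0.087, against -0.0017 here, it was 2, both higher. Slc45a2, Gpr143 and Slc24a5, which are more particular to pigment cells, were not tested. Slc45a2 had 15 ± 7.1 at 31.5 °C and 22.9 ± 11.5 at 37 °C. Gpr143 was at or under the floor on 7 of 8 arrays, and Slc24a5 was not analysed here.

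The lysosome is the organelle to which the melanosome is related, and its genes are driven by TFEB and TFE3, relatives of MITF. Of 37 listed factors and lysosomal genes, 33 were tested: 1 rose, 5 fell and 27 did not pass, that is 15.2% lower against 7.77% of all genes, at a median of -0.19. With the replicate block 3 rose and 12 fell, 36.4% lower against 15.8%. Hexa, a lysosomal hexosaminidase subunit, had 1167, 1058, 1373 and 1097 at 31.5 °C, against 1689, 1559, 2464 and 2116 at 37 °C. These did not overlap, and the change was -0.72 ± 0.16 (adjusted p = 0.0181, and 0.0518 at -0.67 without replicate 2 at 31.5 °C). Tpp1, a lysosomal peptidase, fell by 0.64 (± 0.15, adjusted p = 0.0236), a call lost without replicate 1 or 3 at 37 °C (-0.57 and -0.61, adjusted p = 0.057 and 0.0504), with median scaling (0.09) and with no filter (0.055). On averaging its probe sets it was -0.37 (adjusted p = 0.147). Clcn7, the lysosomal chloride exchanger, fell by 0.47 (± 0.11, adjusted p = 0.0251), a call lost without replicate 1, 2 or 3 at 31.5 °C (-0.47, -0.46 and -0.42, adjusted p up to 0.0711) and with median scaling (0.0856). On averaging its probe sets it was -0.15 (adjusted p = 0.471). With the replicate block (limma) the adjusted p was 0.00425 for Hexa, 0.00353 for Tpp1 and 0.00795 for Clcn7.

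The other 2 that fell were Ctsa (-0.51) and Fnip2 (-0.44), and the gene that rose was Sqstm1 (0.32), an autophagy receptor that is also an antioxidant target. The factors themselves did not pass. Tfeb averaged 141 ± 18.2 at 31.5 °C and 128 ± 41.6 at 37 °C, a change of 0.19 ± 0.23 (adjusted p = 0.61). Tfe3 averaged 517 ± 6.86 at 31.5 °C and 472 ± 38.2 at 37 °C, a change of 0.14 ± 0.081 (adjusted p = 0.292). Tfec, with 36.9 ± 12 at 31.5 °C and 32.6 ± 16.4 at 37 °C, was too dim to be tested. The lysosomal count was 2, 1 and 3 without replicate 1, 2 or 3 at 31.5 °C and 3, 2 and 3 without replicate 1, 3 or 4 at 37 °C, and 1, lower, with median scaling.

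**Figure D3:**
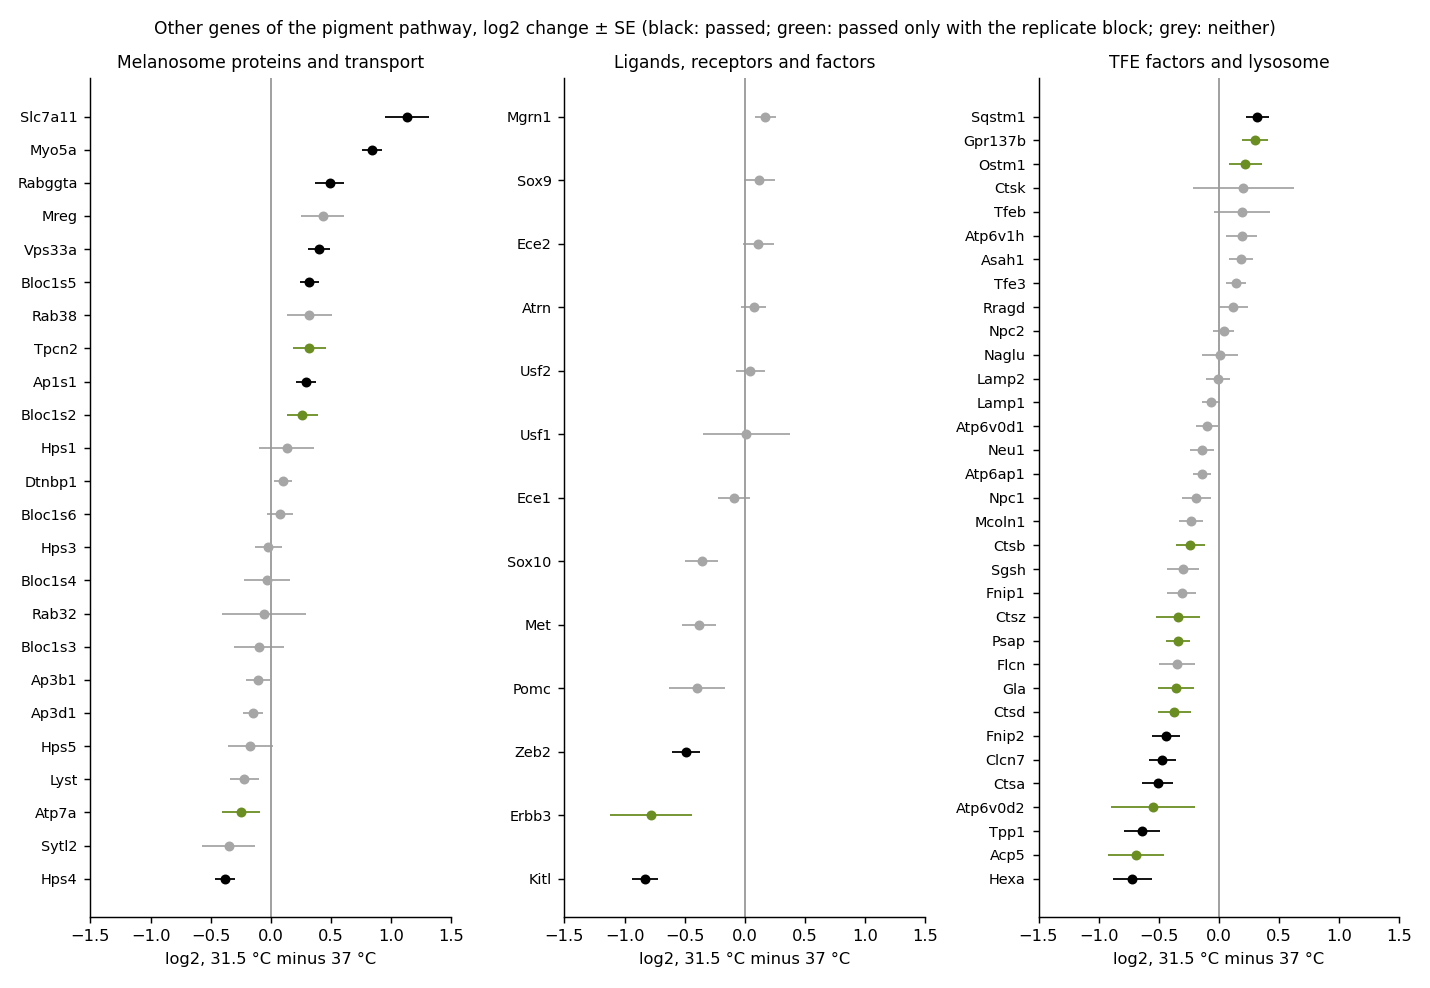
Log2 change (x, 31.5 °C minus 37 °C) with its SE for every tested gene of 3 lists, melanosome and transport (24 genes), ligands, receptors and factors (13) and TFE factors and lysosome (33); black passed without the block, green passed only with the replicate block, grey passed neither. Slc7a11 and Myo5a stand at the top of the first list, Kitl at the bottom of the second and Hexa at the bottom of the third.

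Several members are also genes of other cells that a mixed culture can hold, so markers of those cells are given beside them. In whole cultures fewer cells of a type and less RNA per cell cannot be told apart. The precursor markers that the label calls for were present: Pdgfra, the growth factor receptor of the precursor, had 2469 ± 365 at 31.5 °C and 1798 ± 168 at 37 °C, and Olig2, a factor of the lineage, had 1805 ± 203 at 31.5 °C and 2097 ± 271 at 37 °C. All 10 precursor markers were tested, 2 rose (Pdgfra and Lhfpl3), 2 fell (Gpr17 and Nkx2-2) and 6 did not pass, that is 20% in each direction against 7.64% higher and 7.77% lower of all genes. With the replicate block 3 fell (30% against 15.8%), Ptprz1 being the third. Gpr17 changed by -0.84 ± 0.1 (SE; limma, adjusted p = 0.00242) and passed in all 21 alternatives. Pdgfra (0.45 ± 0.12, adjusted p = 0.0373) did not pass without replicate 2, 3 or 4 at 31.5 °C (0.49, 0.37 and 0.42) or without replicate 1, 2 or 4 at 37 °C (0.42, 0.42 and 0.45), nor with quantile scaling (adjusted p = 0.0531), no filter (0.0692) or averaged probe sets (0.0595). Nkx2-2 (-0.51 ± 0.14, adjusted p = 0.0355) did not pass without replicate 2, 3 or 4 at 31.5 °C (-0.55, -0.51 and -0.4) or at 37 °C (-0.45, -0.49 and -0.54), without pair 2, 3 or 4, with median scaling (adjusted p = 0.203) or with no filter (0.0732). With the replicate block on all arrays (limma) the adjusted p was 0.00629 for Pdgfra and 0.0196 for Nkx2-2. The summed signal of the 10 precursor markers was 16508 to 19008 at 31.5 °C and 17044 to 19983 at 37 °C.

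For Gpnmb and Mitf, which macrophages and microglia express, the microglia list is the relevant one. Of its 20 genes 19 were tested, 0 rose, 1 fell and 18 did not pass, that is 5.26% lower against 7.77% of all genes tested. With the replicate block 8 fell, 42.1% against 15.8% of all genes. The one that fell was Fcrls (-1.58 ± 0.44, adjusted p = 0.0426), a call lost without replicate 1, 2 or 3 at 31.5 °C (-1.67, -1.36 and -1.53) or replicate 1, 3 or 4 at 37 °C (-1.62, -1.67 and -1.15). Summed over the 20 genes, the level was 16099, 14108, 22017 and 24095 in replicates 1 to 4 at 31.5 °C, against 19753, 17338, 32198 and 31416 at 37 °C. It was lower in each pair, by -0.3, -0.3, -0.55 and -0.38 on the log2 scale, where the brighter probe set of Gpnmb changed by -1.73, -1.49, -1.75 and -0.93. The microglia sum was higher in replicates 3 and 4 than in 1 and 2 at both temperatures, the same arrays in which Mitf was high. The brighter probe set of Gpnmb was lower in replicate 3 than in replicate 2 at both temperatures. The 8 that fell with the block were the complement genes C1qa (-0.74), C1qb (-1.17) and C1qc (-0.84), the cathepsin gene Ctss (-0.61), the lysozyme gene Lyz2 (-0.57), Ly86 (-0.47), Laptm5 (-0.34) and Fcrls, each lower in 4 of 4 pairs. C1qb averaged 429.8 ± 166 at 31.5 °C and 976 ± 406 at 37 °C (adjusted p = 0.0659, and 0.00117 with the block). Cd14 went the other way, higher in 4 of 4 pairs, but did not pass (0.26 ± 0.21, adjusted p = 0.436, and 0.115 with the block). P2ry12 was also higher in 4 of 4 pairs (0.51) and was too dim to be tested. Of the other markers Csf1r had 0.15 ± 0.3 (adjusted p = 0.779), Aif1 -0.26 ± 0.34 (adjusted p = 0.649) and Cx3cr1 -0.15 ± 0.38 (adjusted p = 0.832), and the phagocytic receptor Trem2 had -0.044 ± 0.33 (adjusted p = 0.948, above 0 with median scaling). None of the 20 was at the floor on all arrays. The part of these cells in the levels of Gpnmb and Mitf was not tested.

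For Ednrb, which astrocytes carry, the summed astrocyte list was lower in each pair (log2 differences of -0.36, -0.33, -0.51 and -0.34), with 11054 to 19015 at 31.5 °C and 13958 to 24424 at 37 °C, while Ednrb itself was at 106% of its 37 °C level. In this list 0 of 12 rose, 1 fell (S100b) and 11 did not pass, that is 8.33% lower against 7.77% of all genes. S100b changed by -1.67 ± 0.12 (SE; limma, adjusted p = 0.000336) and passed in all 21 alternatives. With the block 1 rose (Slc4a4) and 6 fell (50% against 15.8%), among them Gfap (-0.64) and Aqp4 (-0.77). Neuron markers gave 1 that rose (Nefm, not past the threshold without replicate 2 or 3 at 31.5 °C, at 0.67 and 0.63), 0 that fell and 11 that did not pass. That is 8.33% higher against 7.64% of all genes tested, and 0% lower against 7.77%. With the block 1 rose and 5 fell (41.7% against 15.8% of all genes), namely Tubb3, Rbfox3, Syt1, Slc17a6 and Slc32a1, by -0.21 to -0.88, each lower in 4 pairs. The neuron list had sums of 12173 to 15112 at 31.5 °C and 12361 to 17487 at 37 °C. What share of any member's level came from these cells was not tested.

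Markers of other cells that use these genes were mostly dim. Of the mast cell list, relevant to Kit and Mitf, 0 of 10 genes were bright enough to be tested, Cpa3 averaged 10.4 ± 5.08 at 31.5 °C and 11.4 ± 3.15 at 37 °C, Fcer1a was at or under the floor on 7 of 8 arrays, and the sum of 9 genes was 90.1 to 141 at 31.5 °C and 107 to 129 at 37 °C. Of the Schwann cell and crest list 4 of 10 were tested and 0 passed (by limma's unadjusted p 1 was under 0.05, lower, and with the block 1 passed, lower), Pmp22, a myelin protein gene with wide expression, had 1392 ± 96.8 at 31.5 °C and 1486 ± 248 at 37 °C, Cdh19 had 12.2 ± 4.04 at 31.5 °C and 18.2 ± 8.57 at 37 °C, and the sum was 1487 to 1808 at 31.5 °C and 1537 to 2135 at 37 °C. Of the retinal pigment epithelium list 4 of 9 were tested, 0 rose, 1 fell and 3 did not pass, with sums of 759.9 to 1715 at 31.5 °C and 939.7 to 2288 at 37 °C. That is 25% lower, against 7.77% of all genes, and with the block 2 fell, Rdh5 and Ttr (50% against 15.8%). Ttr, the transthyretin gene that choroid plexus also uses, had 358 ± 329.5 at 31.5 °C and 583 ± 507 at 37 °C, lower in 4 pairs (-0.89 ± 0.85, adjusted p = 0.527, and 0.0121 with the block), and Otx2, a factor of that epithelium and of the forebrain, had 173 ± 29.8 at 31.5 °C and 158 ± 26.1 at 37 °C. Rpe65, its defining enzyme gene, was under 36.3 on average at both temperatures (30.6 ± 8.39 at 31.5 °C and 23.5 ± 6.69 at 37 °C), Best1 and Rgr were at or under the floor on all arrays, and Rlbp1, which glia also express, had 499 ± 106 at 31.5 °C and 531 ± 121 at 37 °C. Rdh5, a retinol dehydrogenase gene of that epithelium, fell by 0.79 (± 0.17, adjusted p = 0.0201), a call lost without replicate 2 or 3 at 31.5 °C (-0.75 and -0.74, adjusted p = 0.0563 and 0.0582), with median scaling (0.0827) and with no filter (0.0528). Of the endothelial and pericyte list 4 of 11 were tested (Kdr, Flt1, Rgs5 and Pdgfrb) and 0 passed (0 by limma's unadjusted p). With the block 1 was higher (Rgs5) and 1 lower (Kdr). Pecam1 was at or under the floor on 7 of 8 arrays.

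**Figure D4:**
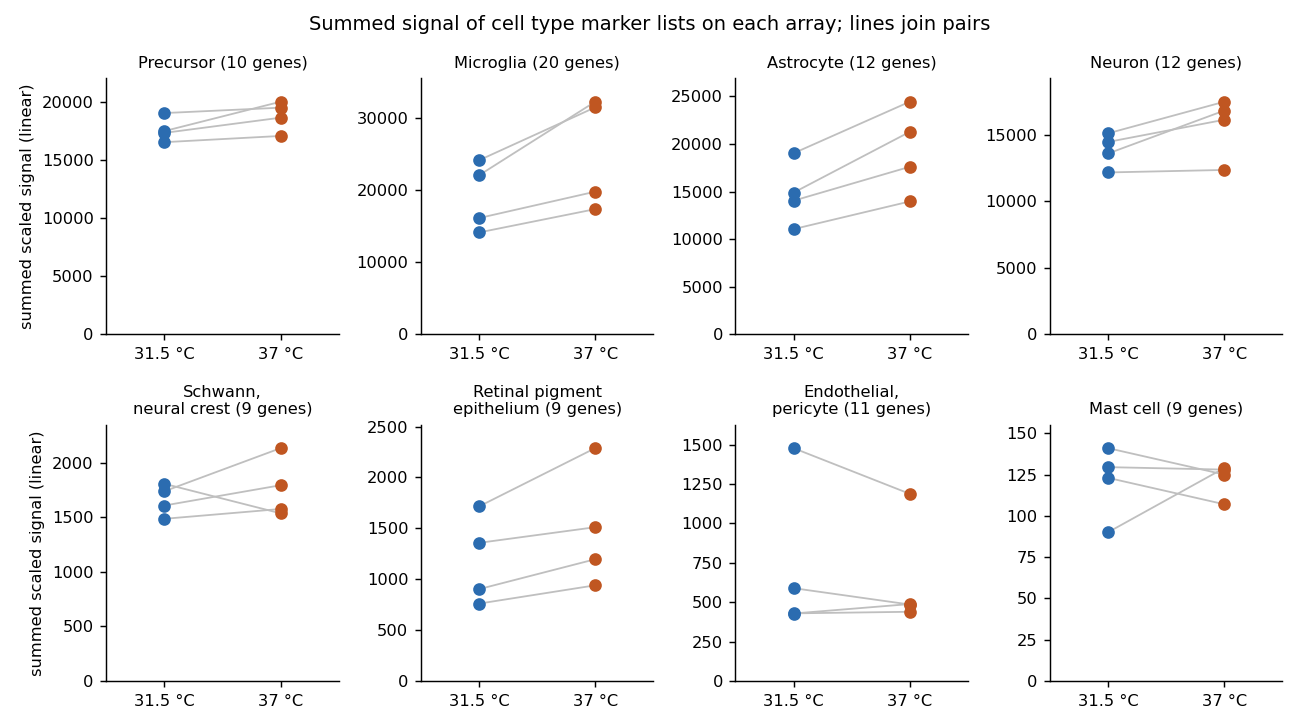
Summed scaled linear signal (y) of 8 lists of cell type markers on the 4 arrays at 31.5 °C (blue, left) and the 4 at 37 °C (orange, right), with lines joining arrays of 1 replicate number. The precursor, microglia, astrocyte, neuron and retinal pigment epithelium sums are lower at 31.5 °C in each of the 4 pairs. The mast cell sum stays at or under 141 on every array. Linear sums lean on their brightest genes and do not measure cell numbers. On average these were Lyz2 for microglia, and Ttr and Rlbp1 for the retinal pigment epithelium, while Rpe65 was higher at 31.5 °C in each of the 4 pairs.

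Changes are given here as ranges over the scalings, floors, filters and arrays left out. For the 3 genes on which the set was chosen the direction is no check. They were picked as lower, and their brightest probe sets did not overlap, so leaving out arrays could not reverse them. The change of Dct lay between -1.8 and -1.42, that of Oca2 between -1.28 and -1.11, and that of Gpnmb between -1.74 and -1.11, the last on averaging its 2 probe sets. Mitf ranged from -0.59 to -0.31. Kit stayed between 0.016 and 0.19 and Ednrb between 0.016 and 0.17. Pmel had -0.39 to 0.12 and so has no settled direction.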

How the data were processed

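Of the 8 mouse expression arrays (4 at 31.5 °C, 4 at 37 °C), the deposited table holds 1 linear intensity per probe set, and the submitters' processing notes name MAS5 as the authors' tool. Version, scaling target and detection calls are not given in the sources used here. Of 45101 probe sets, 64 controls were left out. The platform annotation gave 34945 probe sets 1 gene symbol, 932 several (not used) and 9160 none, and symbols were updated through the RefSeq gene table (GRCm38.p6). Arrays were scaled to 1 common 2% trimmed mean (factors 0.848 to 1.6), values under the 25th percentile were raised to it, log2 was taken, and each gene was read by its brightest probe set. Genes at or above the median (11525) were fitted with limma 3.58.1 in R 4.3.3 (lmFit, eBayes, two-sided, temperature as the only term) with Benjamini-Hochberg adjusted p over the 11525 and a threshold of 0.05. The procedure was also run on simulated data, whose outcome is not given here and is not used as support.

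Arrays of 1 replicate number deviated together from their group means (correlations of 0.541, 0.422, 0.497 and 0.614 across genes, against at most 0.0566 between numbers), so the numbers pair the arrays, and values with the number as a block stand beside a result where they change it. No 2 arrays shared more than 0.708% of their values. The members and gene lists were chosen with earlier results of these data known. The text names all members, up to 3 genes of smallest p per list, 13 fixed genes, and the 3 most correlated genes for each of Dct, Gpnmb and Oca2; other listed genes were named after their values were seen. Promoter windows come from RefSeq (GRCm38.p6), and 8 of 10 members were matched. Alternatives were median or quantile scaling, log2(signal + 1) without a floor, a floor at the median value, a stricter filter (70th percentile) or no filter on dim genes, averaging a gene's probe sets, leaving out _x_at and _s_at probe sets, the block, and leaving out each array or pair. Plots were made in matplotlib 3.10.9 (Python 3.11.15).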

Additional observations from a re-analysis of the deposited data

Results flagged for a closer look

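In each group of 4 arrays, a single array far from the other 3 was looked for with Dixon's ratio of the gap to the range. The limit was Dixon's usual critical value for 4 values. Of 100 groups of member probe sets, named genes and marker sums, 8 passed, and chance gives about 1 in 20. Among the members, the brighter probe set of Kit in replicate 3 at 37 °C was lowest at 143, with the next at 161 (ratio 0.904). The brightest of Ednrb in replicate 1 at 31.5 °C was highest at 4909.8, with the next at 4169 (0.871). The brightest of Tyr in replicate 1 at 37 °C was lowest at 0.593, with the next at 17.2 (0.868). That Tyr value lies under the floor of 9.8, where values have no order, so nothing is read from its ratio. Among other genes, Slc7a11 was lowest in replicate 4 at 31.5 °C (254, next 376, ratio 0.944), Tpp1 in replicate 2 at 31.5 °C (981, next 1378, ratio 0.926) and Hps4 in replicate 3 at 37 °C (230, next 260.2, ratio 0.858). The sum of the endothelial and pericyte list was highest in replicate 4 at both temperatures. It was 1478 at 31.5 °C (next 589, ratio 0.847) and 1188 at 37 °C (next 488, ratio 0.935). Most of these sums came from the pericyte genes Rgs5 (892 at 31.5 °C and 681 at 37 °C) and Pdgfrb (368 and 288).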

How the results depend on the processing

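Over 21 alternatives the median change of the 10 members ran from -0.34 to 0 around -0.17. The count of all genes called, 1775, was 725 with median scaling (62.6% of them higher, against 49.6%), 3548 with the replicate block, 872 to 1591 with 1 array left out and 2047 to 2422 with a pair left out. The melanosome count of 7 was 2 with median scaling, 2 to 7 with 1 array left out and 4 to 6 with a pair left out. The regulator count of 2 was 1 with median scaling, 1 with no filter and 1 to 3 with 1 array left out. With the mean of probe sets it stayed at 2, but as 1 higher and 1 lower, against 0 higher and 2 lower. The lysosomal count of 6 was 1 with median scaling, 2 with no filter, 3 with the mean of probe sets, 15 with the replicate block, 1 to 7 with 1 array left out and 7 to 11 with a pair left out. Trem2 turned positive with median scaling (0.045) and spanned -0.24 to 0.3 with an array left out (0.065 for replicate 2 at 31.5 °C and 0.3 for replicate 3 at 37 °C), with 0.23 for pair 3. Csf1r spanned -0.035 (replicate 1 at 37 °C left out) to 0.33, and Tfeb -0.026 (replicate 3 at 37 °C left out) to 0.38. With no floor and a pseudocount of 1, Tyr had 0.75, Tyrp1 0.77 and Mlana 0.36, values set by signals under the floor. The causes of these shifts were not tested. Array signal over background limits Tyr, Tyrp1, Mlana, Mc1r and Slc45a2.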
